A study of Rattus norvegicus with 24 samples.

Results

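The genes described here belong to the mitochondrial and death-receptor routes of apoptosis, the programme by which a cell dismantles itself. In the mitochondrial route, members of the Bcl-2 family compete at the outer mitochondrial membrane. Bax opens pores there, Bcl2, Bcl2l1 (which encodes Bcl-xL) and Mcl1 hold such pores shut, and Bad binds the survival proteins and occupies them. Once pores form, cytochrome c leaks out and joins the adaptor Apaf1 in the apoptosome, which activates the initiator caspase Casp9. Casp8 is the initiator caspase recruited by death receptors at the cell surface. Adult neurons keep Bcl-xL as their main survival protein, and apoptosome components are lower in mature brain than in developing brain.

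The 8 members were chosen by name, as Bax, Bcl2, Bcl2l1, Mcl1, Bad, Casp8, Casp9 and Apaf1, and not by any measured value. Rows of the reference annotation carrying those names gave 7 genes of the 32883 reference genes in each table. None of the rows used here carried the name Mcl1, so that gene was not analysed here. The samples were frontal cortex of 24 adult male Sprague-Dawley rats taken 24 h after inhalation of an aerosol of tungsten particles. They fell into the groups Control (0 mg/m3), Low (5 mg/m3) and High (80 mg/m3), with 8 rats each. No genotype, transgene or other agent is given, and the labels describe the treatment of all 3 groups as inhalation exposure with only the concentration differing. The labels give the tissue as frontal cortex, although 1 protocol line speaks of cell lines of it. Markers of neurons, astrocytes, oligodendrocytes and microglia were above 0 in every library. For example, the scaled coverage summed over the 6 neuronal markers was 1509 to 2067 among Control rats, 1412 to 2059 among Low rats and 1148 to 2060 among High rats. Sums over the oligodendrocyte markers ran from 2171 to 7127 over the libraries. Those for neighbouring or admixed tissue were 140 to 1026 for striatum, 460 to 1750 for blood, 1.13 to 70.2 for choroid plexus and 14.2 to 29.0 for endothelium. The striatal median was 417 in Control, 308 in Low and 310 in High. Of the markers tested, 0 passed the threshold in any comparison. This is whole tissue, so fewer cells of a type and less RNA per cell cannot be told apart.

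Each library is 1 deposited table of genes from StringTie, which builds transcripts out of aligned reads and measures them. The value used is coverage, the mean read depth per base of a gene, divided by its sum over the reference genes of that rat and multiplied by 1000000. It is called scaled coverage below. It is a depth per base, so levels of different genes are compared per length, but the order of some genes was different in the deposited FPKM column. In units of 1000000, the coverage sum was 1.64 to 3.07 over the 24 libraries. Genes with a mean scaled coverage of at least 1 over the 24 rats were tested, which were 15644 genes including 6 of the members. Casp8 was below that minimum. The Low tables hold no loci assembled from the reads while the Control and High tables do, so the kind of table and the Low group cannot be told apart. Libraries Control 49 and Low 57 stood apart from their groups. Over the 1773 tested genes that span more than 100 kb, their median log2 deviations from the group mean were -0.53 and -0.35, against -0.11 to 0.18 in the other 7 rats of either group. Results that rest on them are given with and without them.

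The members covered a wide range of levels. Bad was the highest, with a mean scaled coverage of 40.4 over the 24 rats, above 75.8% of the tested genes. Bax followed with 36.8 and Bcl2l1 with 34.7, above 73.6% and 72.2% of the tested genes. These 3 genes of the mitochondrial membrane were thus close to each other in depth, while Bcl2, which acts there too, was far lower. Casp9 had a mean of 18.6, Apaf1 6.04 and Bcl2 2.47, the last above only 12.6% of the tested genes. Casp8 had a mean of 0.143, with a depth of 0.164 to 0.568 reads per base before scaling. The order from Bcl2l1 through Casp9, Apaf1 and Bcl2 to Casp8 held in 24 of 24 rats in scaled coverage. The top of the order did not, since Bad was above Bax in 18 of 24 rats and Bax above Bcl2l1 in 15 of 24. Bad exceeded Bax in 8 of 8 Control and 7 of 8 High rats but in 3 of 8 Low rats. In the FPKM column, Bad was above Bax in 5 of 24 rats, Bcl2l1 above Casp9 in 19 and Apaf1 above Bcl2 in 20, so the order of those neighbours rests on the column read. Casp9 was above Apaf1, and Bcl2 above Casp8, in 24 of 24 rats in both columns. Among the survival genes, Bcl2l1 was an order of magnitude deeper than Bcl2 in the mean scaled coverages just given. Among rats of 1 group, Bcl2l1 varied least, with a within-group SD of 0.125 on the log2 scale, lower than in all but 8.66% of the tested genes. Bcl2 (SD 0.233) and Apaf1 (SD 0.236) varied most of the 6, both near the middle of all tested genes.

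**Figure D1:**
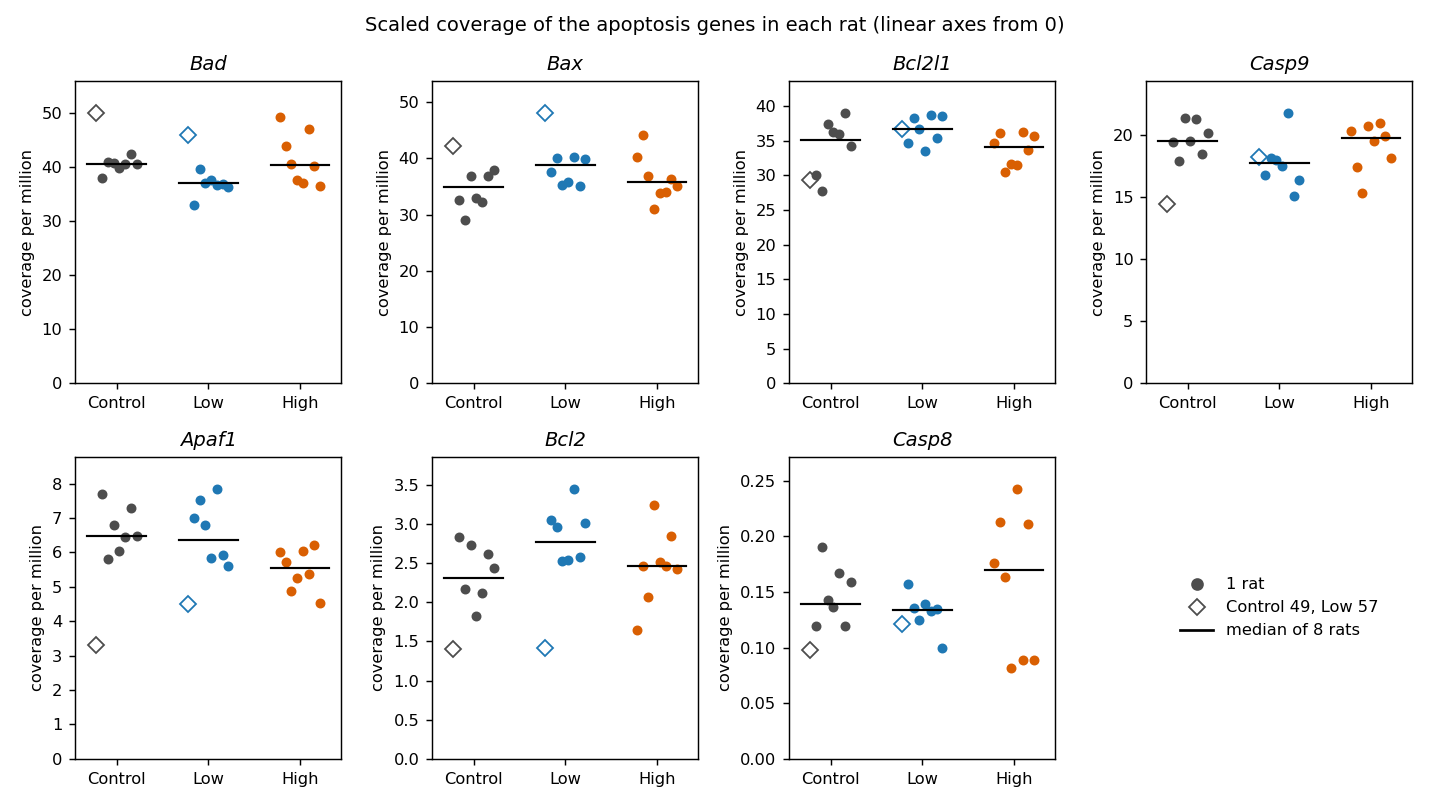
Scaled coverage (coverage per 1000000, linear axes from 0) of the 7 genes in each of the 24 rats, with 1 point per rat, lines for the median of 8 rats and open diamonds for Control 49 and Low 57. In each panel the 3 groups overlap, and the diamonds are the highest points of their groups for Bad and Bax and the lowest for Apaf1 and Bcl2.

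Bax, the pore-forming member, lies on chromosome 1 from 101451802 to 101457207 on the minus strand (ENSRNOG00000020876, 5.41 kb, positions as in the tables). Scaled coverage of Bax was 29.0 to 42.2 in the Control rats (median 34.9), 35.0 to 48.0 in the Low rats (median 38.7) and 30.9 to 44.2 in the High rats (median 35.7). The 3 ranges overlapped, although 8 of 8 Low rats lay above the Control median. The mean was 35.1 ± 4.13 (SD, n = 8) in Control and 39.0 ± 4.25 in Low, a log2 difference of 0.15 with a standard error of 0.0785. That difference did not pass the threshold (limma adjusted p = 0.311). Its 95% interval ran from -0.01 to 0.31, and relative to a median of 0.06 over all tested genes in the same comparison the shift was smaller still. In High the mean was 36.4 ± 4.14, a log2 difference from Control of 0.05 with an interval from -0.11 to 0.22.

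Bad, which binds and occupies the survival proteins, lies on chromosome 1 from 222198534 to 222207453 on the plus strand (ENSRNOG00000021147, 8.92 kb). Scaled coverage of Bad was 38.0 to 49.9 in the Control rats (median 40.6), 33.0 to 45.8 in the Low rats (median 37.0) and 36.5 to 49.3 in the High rats (median 40.3). The groups overlapped, with 7 of 8 Low rats below the Control median and 7 of 8 below the High median. The mean was 41.6 ± 3.57 (SD, n = 8) in Control and 37.9 ± 3.70 in Low, a log2 difference of -0.13 (interval -0.28 to 0.01, limma adjusted p = 0.311). Relative to the median of 0.06 over all tested genes this shift was larger. With median-of-ratios scaling it was -0.19 (limma adjusted p = 0.275). High had a mean of 41.5 ± 4.77 and differed from Control by -0.01 on the log2 scale, with an interval from -0.15 to 0.14. Low differed from High by -0.13 (limma adjusted p = 0.231), and by -0.22 with median-of-ratios scaling.

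Bcl2, the founding survival member, is the longest of the genes and lies on chromosome 13 from 26605426 to 26769374 on the minus strand (ENSRNOG00000002791, 164 kb). Scaled coverage of Bcl2 was 1.41 to 2.83 in the Control rats (median 2.30), 1.42 to 3.44 in the Low rats (median 2.77) and 1.65 to 3.24 in the High rats (median 2.46). The groups overlapped over most of their ranges, and 7 of 8 Low rats were above the Control median. Low differed from Control by 0.17 on the log2(value + 1) scale, which understates the change of a gene this low, with a standard error of 0.121 and an interval from -0.08 to 0.42 (limma adjusted p = 0.472). High differed from Control by 0.08, with an interval from -0.17 to 0.33.

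Bcl2l1 lies on chromosome 3 from 148259596 to 148313810 on the minus strand (ENSRNOG00000007946, 54.2 kb), where the reference gene LOC108353446 overlaps it on the other strand. Scaled coverage of Bcl2l1 was 27.7 to 39.0 in the Control rats (median 35.1), 33.5 to 38.8 in the Low rats (median 36.7) and 30.4 to 36.3 in the High rats (median 34.2). The Low range lay inside the Control range. The log2 difference between Low and Control was 0.12 with a standard error of 0.0655 (limma adjusted p = 0.338), and that between Low and High was 0.11 (adjusted p = 0.259). High and Control had means of 33.8 ± 2.32 and 33.8 ± 4.18 (SD, n = 8), and the interval of their log2 difference was -0.13 to 0.14.

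Apaf1, the adaptor of the apoptosome, lies on chromosome 7 from 31699885 to 31784192 on the minus strand (ENSRNOG00000008022, 84.3 kb), where the annotation also places AC095650.1 and a U6 RNA. Scaled coverage of Apaf1 was 3.30 to 7.69 in the Control rats (median 6.46), 4.51 to 7.84 in the Low rats (median 6.37) and 4.53 to 6.21 in the High rats (median 5.54). The High rats formed the narrowest group, and 8 of 8 of them lay below the Control median, while the Control range enclosed all of them. High differed from Control by -0.13 on the log2 scale with an interval from -0.38 to 0.11 (limma adjusted p = 0.999). Low differed from Control by 0.04 (adjusted p = 0.878) and from High by 0.17 (adjusted p = 0.335).

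Casp9, the initiator caspase that Apaf1 activates, lies on chromosome 5 from 160355833 to 160373778 on the plus strand (ENSRNOG00000012944, 17.9 kb). Scaled coverage of Casp9 was 14.5 to 21.3 in the Control rats (median 19.5), 15.1 to 21.7 in the Low rats (median 17.7) and 15.3 to 21.0 in the High rats (median 19.7). The groups overlapped almost entirely, with 7 of 8 Low rats below the Control median. Low differed from Control by -0.10 on the log2 scale with an interval from -0.26 to 0.07 (limma adjusted p = 0.541). Relative to the median of 0.06 over all tested genes this shift was larger. With median-of-ratios scaling it was -0.15 (limma adjusted p = 0.261). High differed from Control by less than 0.01 in size (-0.00057), with an interval from -0.16 to 0.16.

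Casp8, the initiator caspase of the death-receptor route, lies on chromosome 9 from 65614142 to 65662106 on the plus strand (ENSRNOG00000012331, 48.0 kb). Scaled coverage of Casp8 was 0.0977 to 0.191 in the Control rats (median 0.140), 0.10 to 0.157 in the Low rats (median 0.134) and 0.0819 to 0.243 in the High rats (median 0.170). The High rats spread over both ends of the other 2 ranges, and at this depth no difference between the groups was detectable in coverage. Without the minimum on the mean, limma gave adjusted p = 1.0 for both doses against Control and 0.833 for Low against High.

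Counted over the members, 0 of the 6 tested genes passed the threshold (limma, adjusted p under 0.05) in any of the 3 comparisons, and 0 had an unadjusted p under 0.05. Exact Wilcoxon rank-sum tests also called 0 of 6. For Low against Control the background was 6.11% of the 15644 tested genes past the threshold, 18.4% at an unadjusted p under 0.05 and 2.37% in the Wilcoxon tests. For High against Control it was 0%, with 330 genes (2.11%) at an unadjusted p under 0.05 in limma, and 0 adjusted and 887 unadjusted calls (5.67%) in the Wilcoxon tests. For Low against High it was 11.7%, with 29.1% unadjusted and 7.25% in the Wilcoxon tests. The median log2 difference of the members was 0.08 for Low against Control, 0.00 for High against Control and 0.09 for Low against High, beside 0.06, -0.03 and 0.09 over all tested genes. The comparisons share rats, so their counts are not separate evidence. The intervals bound what these data could hide. For Bax, Bad, Bcl2l1 and Casp9 the interval of High against Control stayed between 0.892 and 1.16 on the fold scale of (value + 1), and for Bcl2 and Apaf1 between 0.770 and 1.26.

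**Figure D2:**
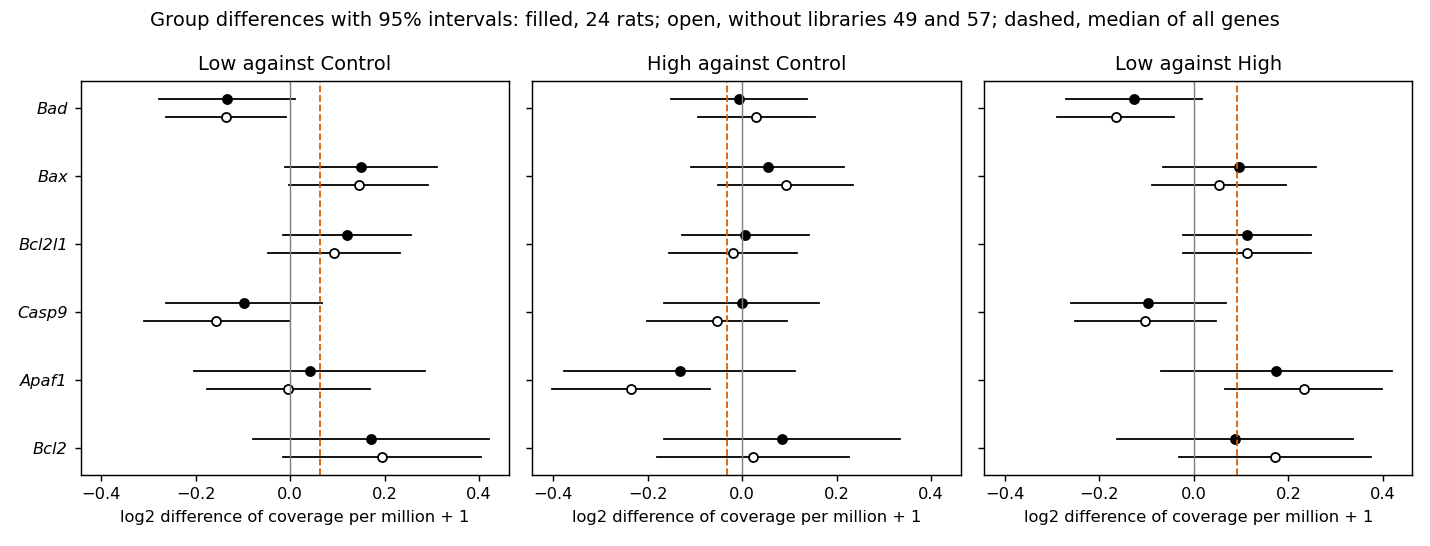
Log2 differences of scaled coverage + 1 with 95% intervals from limma for the 6 tested members in 3 comparisons, filled for 24 rats, open without libraries 49 and 57, and dashed lines for the median of all tested genes. With 24 rats each interval includes 0, and without both libraries 5 do not, those of Bad and Apaf1 in Low against High, of Bad and Casp9 in Low against Control and of Apaf1 in High against Control.

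The labelled groups hid a larger spread between single rats. In Control 49, Bax was 42.2 and Bad 49.9, the highest of the group, where the other 7 Control rats had 29.0 to 37.8 and 38.0 to 42.5. In the same rat Bcl2 was 1.41, Apaf1 3.30 and Casp9 14.5, the lowest of the group, against 1.83 to 2.83, 5.80 to 7.69 and 17.9 to 21.3 in the others. Low 57 had the same arrangement for 4 genes. There Bax was 48.0 and Bad 45.8, against 35.0 to 40.2 and 33.0 to 39.7 in the other Low rats, while Bcl2 was 1.42 and Apaf1 4.51, against 2.52 to 3.44 and 5.60 to 7.84. Casp9 in Low 57 was 18.2, inside the range of its group. In both rats the short genes Bax and Bad were thus high and the long genes Bcl2 and Apaf1 low, and this moved with the deviation of long genes given above. Genes spanning under 10 kb, of which 5829 were tested, had median deviations of -0.06 in Control 49 and 0.01 in Low 57. What part gene length has in these members' values was not tested. High 65 had the highest Bad (49.3) and the lowest Bcl2 (1.65) of its group, but its Apaf1 of 6.02 was below those of a pair of other High rats and its long genes deviated by -0.10.

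**Figure D3:**
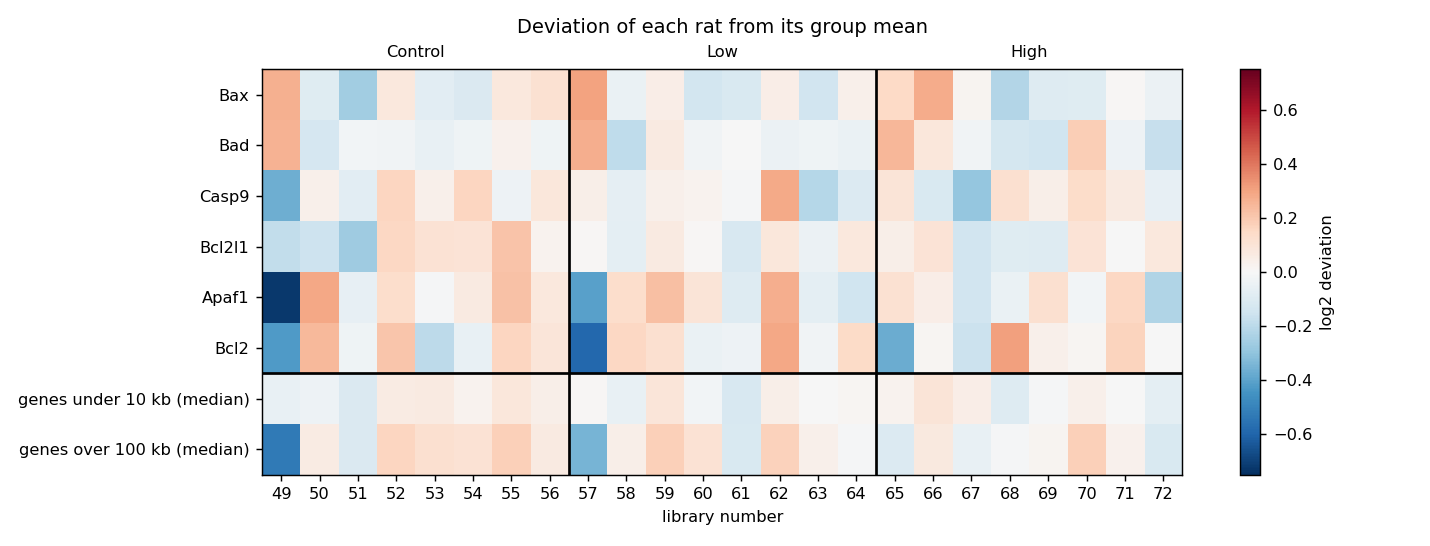
Log2 deviation of each rat from its group mean for the 6 tested members (ordered by span from short to long) and for the medians of tested genes under 10 kb and over 100 kb, with red above and blue below the group mean. Control 49 and Low 57 are red for Bax and Bad and blue for Apaf1, Bcl2 and the genes over 100 kb.

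The ratio of Bax to Bcl2 coverage, often used as a summary of the balance between death and survival genes, showed the same rats. It was 11.6 to 30.0 in the Control rats (median 14.7), 11.7 to 33.9 in the Low rats (median 13.6) and 9.53 to 24.4 in the High rats (median 14.1). The highest ratio of each group belonged to Control 49, Low 57 and High 65. Without Control 49 the Control ratios ended at 18.1, and without Low 57 the Low ratios ended at 14.1. The medians of the 3 groups lay close together and their ranges overlapped. The ratio of Bax to Bcl2l1 was 0.895 to 1.44 in the Control rats (median 1.02), 0.960 to 1.31 in the Low rats (median 1.04) and 0.936 to 1.22 in the High rats (median 1.08). In coverage, Bax was thus near parity with Bcl2l1 and deeper than Bcl2 in every rat. In FPKM the ratio of Bax to Bcl2 was lower, at 5.84 to 20.04 among Control rats, 7.70 to 21.6 among Low rats and 5.93 to 9.98 among High rats. That of Bax to Bcl2l1 was 0.925 to 1.42 among Control rats and 0.888 to 1.10 among High rats, but 0.518 to 0.718 among Low rats.

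**Figure D4:**
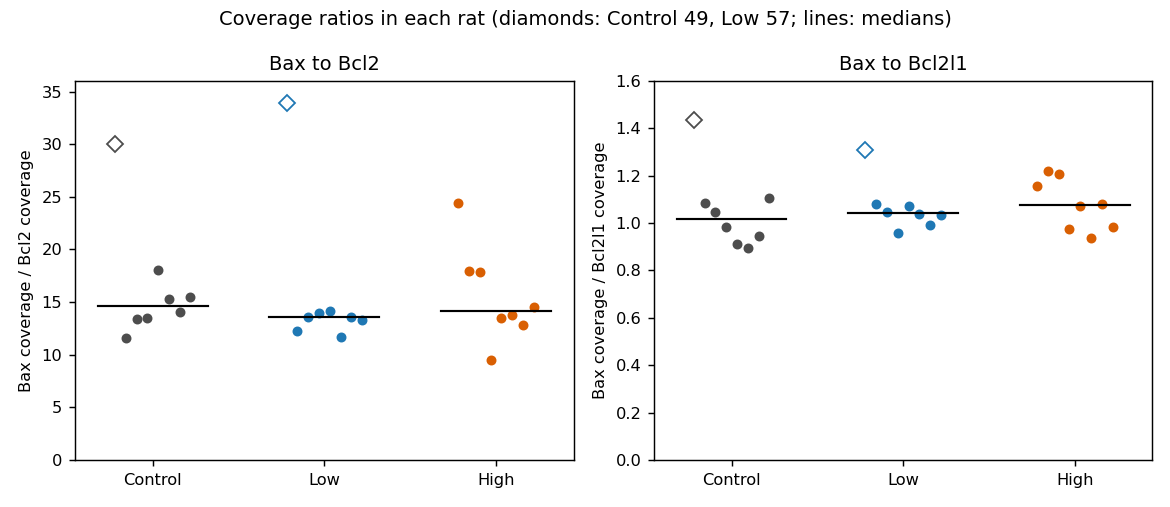
Ratio of coverage of Bax to Bcl2 (left) and of Bax to Bcl2l1 (right) in each rat, with lines for medians and open diamonds for Control 49 and Low 57 (linear axes from 0). The Bax to Bcl2 medians are 14.7, 13.6 and 14.1, and the highest points are Control 49, Low 57 and High 65.

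Leaving out both libraries, an alternative chosen after seeing the data, changed 2 calls among the members. In Low against High, Bad was lower in Low, at 36.8 ± 1.99 (SD, n = 7) against 41.5 ± 4.77 (n = 8), a log2 difference of -0.17 with a standard error of 0.0595 (limma adjusted p = 0.0395). The 7 Low rats kept were all below the High median. Apaf1 was higher in Low, at 6.65 ± 0.878 against 5.50 ± 0.600, a log2 difference of 0.23 with a standard error of 0.0807 (limma adjusted p = 0.0345), with 7 of 7 Low rats above the High median. The background in that fit was 28.8% of 15685 genes past the threshold, so 2 calls among 6 members are near the share of all genes. The Low and High ranges of each member still overlapped, where those of 3.83% of all genes did not. In Low against Control, Casp9 moved from -0.10 to -0.16 (interval -0.31 to -0.00, limma adjusted p = 0.292) and Bad stayed at about -0.14 (interval -0.26 to -0.01, adjusted p = 0.264). Apaf1 differed by -0.24 between High and Control (limma adjusted p = 0.126), with 8 of 8 High rats below the Control median. Against Control, 0 of 6 members passed in either dose, beside backgrounds of 4.32% for Low and 2.49% for High. At an unadjusted p under 0.05 in limma the members numbered 2 of 6 in Low against Control, 1 in High against Control and 2 in Low against High, beside 16.6%, 15.8% and 40.2% of all genes. The direction of Apaf1 in Low against High, 0.17 in 24 rats, was -0.01 with unscaled coverage. That of Bad was negative under each scaling of coverage and positive with the FPKM column.

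Some pairs of members deviated to the same side in most rats, and other pairs did not. Bcl2 and Apaf1 were on the same side of their group means in 18 of 24 rats, the most of the 15 pairs. Bax and Bad shared a side in 17 of 24 rats, as did Apaf1 and Casp9, while Bad and Casp9 did so in 11. Bad and Bcl2 shared a side in 12 of 24 rats. The deviations of that pair ran in opposite directions, with Spearman's rho -0.51, and -0.36 without libraries 49 and 57. These counts use the same libraries as the deviations above, and Control 49 and Low 57 are among the rats that agree in the pairs of Bcl2 with Apaf1 and of Bax with Bad. Because Bcl2 and Apaf1 varied together most often, the reference sequences around their starts are shown, from RefSeq on build GRCr8, 300 bases each, 5′ to 3′ on the gene's strand. Bcl2 is chr13:23366851-23367150 and Apaf1 is chr7:27466723-27467022, both on the minus strand. Capitals mark the motifs searched on both strands, which were the GC box (GGGCGG, or CCGCCC), the CCAAT box (CCAAT, or ATTGG), the TATA box (TATAAA, or TTTATA) and the cyclic AMP response element (TGACGTCA).
Bcl2: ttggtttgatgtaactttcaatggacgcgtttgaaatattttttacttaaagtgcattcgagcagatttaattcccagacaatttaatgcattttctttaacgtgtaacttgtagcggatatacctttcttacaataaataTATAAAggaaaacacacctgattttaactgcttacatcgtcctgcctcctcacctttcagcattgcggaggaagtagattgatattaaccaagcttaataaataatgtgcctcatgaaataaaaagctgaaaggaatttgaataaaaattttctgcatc
Apaf1: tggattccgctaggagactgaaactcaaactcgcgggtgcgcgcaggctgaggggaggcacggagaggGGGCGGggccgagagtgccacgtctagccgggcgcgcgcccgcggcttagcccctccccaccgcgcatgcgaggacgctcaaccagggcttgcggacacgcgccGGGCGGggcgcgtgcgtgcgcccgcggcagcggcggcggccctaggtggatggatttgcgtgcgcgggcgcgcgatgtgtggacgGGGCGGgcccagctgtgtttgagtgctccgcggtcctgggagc
The windows had little in common. That of Bcl2 had a GC content of 32.7% and 1 TATA box match, a motif found in 14.2% of the 33469 promoter windows of the table. That of Apaf1 had a GC content of 73.7% and 3 GC box matches, a motif found in 33.1% of them, and the median GC content of all windows was 51.7%. In the window of Casp9, 3 GC box matches were also found. CCAAT boxes occurred in 37.5% and the cyclic AMP element in 1.83% of all windows, and neither occurred in those of Bcl2 or Apaf1. A match is a run of letters and not a bound site. The table had entries for 6 of the 8 members, and none for Bax and Casp8.

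The genes whose scaled coverage over the 24 rats was most like that of each member, by Spearman's rho, are given as a description. Rats share library, depth and group in these values. For Bax they were 2 annotated copies of Rpl7a, a ribosomal protein gene (rho 0.894 for both). For Bad they were Pkig (0.803), which encodes an inhibitor of protein kinase A, and Bex3 (0.797). For Bcl2 they were Slc6a17 (0.856), a vesicular amino acid transporter of neurons, and Cemip2 (0.780). Bcl2l1 had the closest partner of any member, Ppp2r5b (0.931), a regulatory subunit of protein phosphatase 2A, followed by Pigs (0.890). For Apaf1 they were Unc5c (0.893) and Plxna2 (0.890), receptors of axon guidance that span 149 and 198 kb. For Casp9 they were Mgat5b (0.771) and Fam189b (0.753). Casp8, at its low depth, was most like F13a1 (0.728) and Bmp6 (0.708), and little can be read from values so near 0.

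The wider apoptosis machinery was described with a list of 42 further genes, of which 39 were found and 34 tested. Against Control, 0 of 34 passed the threshold in Low (3 with an unadjusted p under 0.05, limma) and 0 of 34 in High (0 unadjusted). The exact Wilcoxon tests also called 0 in both. The median log2 difference of the 34 genes was 0.07 in Low and -0.03 in High, beside 0.06 and -0.03 over all genes. In Low against High, 2 of 34 were higher in Low and 0 lower, where 5.3% of all genes were called higher in Low and 6.39% lower. Bnip3l, a mitochondrial BH3-only protein that acts in mitophagy, lies on chromosome 15 from 43643897 to 43667029, and its Low rats had a scaled coverage of 92.0 to 124 (median 111) where the High rats had 81.6 to 101 (median 92.5). It was 0.22 higher on the log2 scale with a standard error of 0.0572 (limma adjusted p = 0.0114). Birc2, which encodes the ubiquitin ligase cIAP1, had 14.2 to 24.4 among Low rats (median 20.9) and 14.3 to 18.6 among High rats (median 16.7), a log2 difference of 0.30 with a standard error of 0.0834 (limma adjusted p = 0.0205). The groups overlapped for both, with 7 of 8 Low rats above the High median for each gene. Neither call held with unscaled coverage (0.01 and 0.09), with median-of-ratios scaling (adjusted p = 0.246 and 0.0916), in the exact Wilcoxon tests (adjusted p = 0.0514 and 0.0718) or with libraries 56 to 62 as a covariate (limma adjusted p = 0.131 and 0.164). With that covariate the differences were not smaller, at 0.26 and 0.35. Most of libraries 56 to 62 are Low rats and none is High, so the covariate overlaps with the Low group and this fit cannot separate them.

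By role, the deepest genes of the wider list set the members in context. Cycs, the cytochrome c that Apaf1 binds, had a mean scaled coverage of 333, and Bnip3, a BH3-only gene of mitophagy, 192. Bcl2l2, which encodes the survival protein Bcl-w, had 115, above Bcl2l1 and Bcl2. The pore-forming Bok had 25.6, below Bax. Parp1, a DNA repair enzyme cleaved by caspases, had 37.3, and Birc2 18.3. The death-receptor side was shallow, with Tnfrsf1a at 10.6 as its deepest gene, and Fas at 0.866 and Faslg at 0.393 below the minimum for a test, like Casp8. Also below it were Casp6 at 0.836, Birc3 at 0.590 and Bik at 0.113. Casp2 led the other caspases with 10.3. In each role other than the BH3-only genes and the caspase inhibitors, 0 genes passed the threshold in any of the 3 comparisons, and those roles had 1 each, in Low against High.

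The deposited FPKM column gave another picture of the same genes. Tested on it, 6 of 6 members were higher in Low than in Control, with log2 differences of 0.30 for Bcl2, 0.36 for Bad, 0.40 for Apaf1, 0.58 for Bax, 0.61 for Casp9 and 1.38 for Bcl2l1. Of all genes tested on FPKM, 86.5% were called higher in Low than in Control and 86.2% higher in Low than in High, so this is near the share of all genes. The median over all genes was 0.53 against Control, and 3 of the 6 lay below it. Bad and Casp9 were thus lower in Low in coverage and higher in FPKM. The ratio of coverage to FPKM, divided by its median over genes in the same table, was 1.0 for Bad and Apaf1 in each group. For Bax its medians over Control, Low and High rats were 0.822, 0.855 and 0.846. For Bcl2l1 they were 0.804, 0.465 and 0.80, and in the 8 Low tables the ratio lay within 0.465 to 0.467. For Casp9 they were 0.488, 0.417 and 0.515, and for Bcl2 0.496, 0.566 and 0.461. Casp8 had 1.0, 0.0830 and 1.0. Its FPKM was 0.0379 to 0.140 among Control rats, 0.590 to 0.929 among Low rats and 0.0294 to 0.257 among High rats, so that the Low rats lay above all others in this column and not in coverage. The columns thus differed by gene and by kind of table, and for Bcl2l1 the difference between columns was larger than any difference between groups in coverage. The kind of table and the Low group cannot be told apart.

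**Figure D5:**
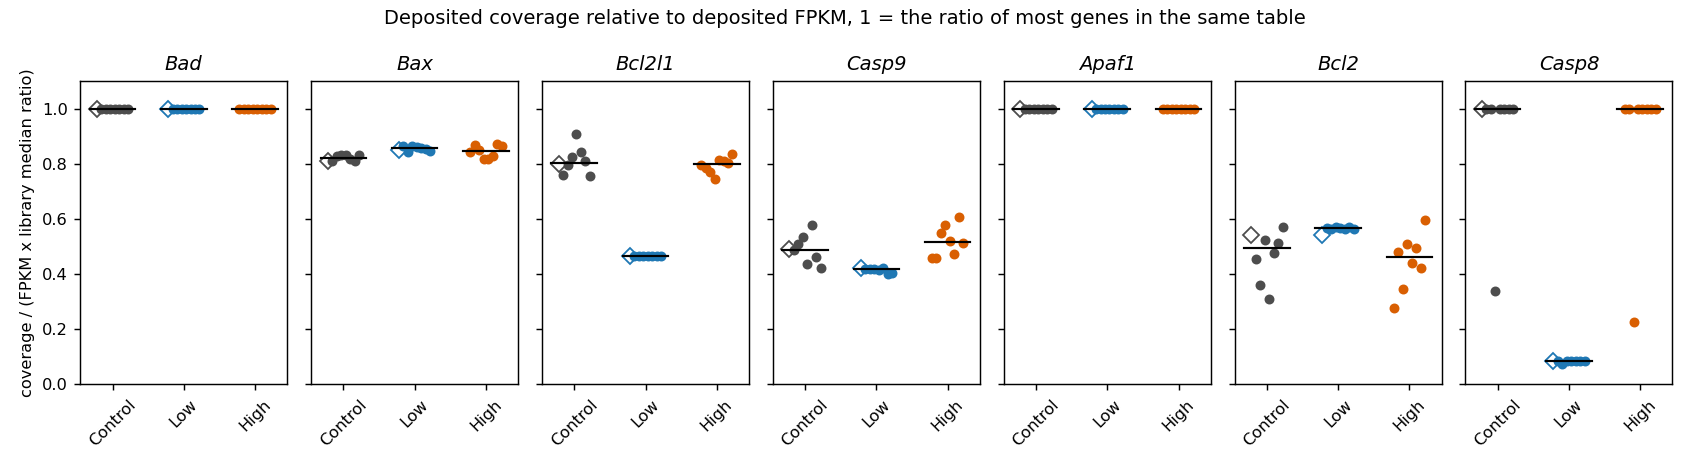
Deposited coverage divided by deposited FPKM for the 7 genes in each rat, relative to the median ratio over genes of the same table, where 1 is the ratio of most genes (linear axes from 0). Bad and Apaf1 sit at 1 in each group, while the Low tables of Bcl2l1 and Casp8 lie near 0.465 and 0.0830, below the High medians of 0.80 and 1.0.

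In the 16 Control and High tables, loci assembled from the reads gave a second value for the members. A locus covering at least 80% of the annotated span was present in 16 of 16 tables for Bax, Bad, Bcl2, Bcl2l1 and Casp9, in 15 for Apaf1 and in 2 for Casp8. The coverage of the deepest locus on the gene's own strand, divided by that of the reference row, had a median of 1.0 for Bax, Bcl2, Casp9 and Apaf1 and 1.15 for Bcl2l1. For Bad it was 0.542 (range 0.268 to 1.0), so the level of Bad depended on which row was read. For Casp8 it was 14.3 (range 7.97 to 16.5) in the 11 tables with such a locus, at reference depths below 1 read per base. Loci on the opposite strand were listed in 16 of 16 tables at Bcl2 and at Bcl2l1, with median coverage ratios of 1.05 and 1.15, and in 10 tables at Bad and at Apaf1.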

How the data were processed

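Polyadenylated RNA of frontal cortex from 24 rats was sequenced by the authors from stranded libraries, and the submitters' processing notes name FastQC, Trimmomatic, TopHat2 and StringTie, without versions, and the build mRatBN7.2. The largest end position on chromosome 1 in the tables is 282724300, and clone and contig names are those of an older assembly, so positions are given as in the tables and the build was not settled. For each rat the authors deposited a table of gene coverage (a signal, mean read depth per base), FPKM (scaled per kilobase and by sequenced bases) and TPM. The deposited TPM column sums to 1000000 in the Low tables only, and in the Control and High tables it was treated as a score because assembled loci are added to the reference genes. The tables hold no read counts, so counting error is unknown and no count model was used.

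Coverage was summed per reference gene and scaled so that each rat's reference genes total 1000000. The model was limma 3.58.1 (trend, robust, two-sided, R 4.3.3) for log2(value + 1) of genes whose mean reached 1, 24 rats entering 1 fit together, and Benjamini-Hochberg adjustment over 15644 genes at a threshold of 0.05. The labels give 1 library per rat. Members, the wider list, marker lists and tests were chosen with earlier results of these data known. All members are named, and of the wider list each gene past the threshold in the fit of 24 rats, the deepest gene of each role and genes below the minimum for a test. The 2 genes most alike to each member were taken by Spearman's rho. Alternatives were a pseudocount of 0.1, no minimum or a minimum of 5, other scalings, the FPKM and TPM columns, the compared groups alone, exact Wilcoxon rank-sum tests, libraries 56 to 62 as a covariate, which is a pattern known from earlier work on these data and not a condition, and leaving out each rat. Libraries 56 to 62 are Control 56 and Low 57 to 62, so that covariate overlaps with the Low group. Leaving out libraries 49 and 57 was added after seeing the data. The fit was tried on simulated data with independent genes and planted differences larger than those of the members in the fit of 24 rats. Shifts shared by many genes of 1 library, as in Control 49 and Low 57, were not simulated, so that trial does not bear on them. Python 3.11.15, numpy 2.4.6, pandas 2.3.3 and matplotlib 3.10.9 were used.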

Additional observations from a re-analysis of the deposited data

Results flagged for a closer look

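Of 27 sets of 8 values examined, 8 had a value far from the other 7 by Dixon's criterion, where chance gives about 1.35. In Control 49, Bad was 49.9 against 38.0 to 42.5 in the other Control rats, and Apaf1 was 3.30 against 5.80 to 7.69. The ratio of Bax to Bcl2 in that rat was 30.0 against 11.6 to 18.1, and its genes over 100 kb had a median deviation of -0.53 against -0.11 to 0.18. In Low 57, Bax was 48.0 against 35.0 to 40.2 in the other Low rats, Bcl2 was 1.42 against 2.52 to 3.44, and their ratio was 33.9 against 11.7 to 14.1. In Low 62, Casp9 was 21.7 against 15.1 to 18.2. The values of 1 rat are not independent of each other, and the cause of these deviations was not tested.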

How the results depend on the processing

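No paired analysis was possible because each library number occurs in 1 group only. Of 501 alternative fits of the 6 members, 445 kept sign and side of the threshold, 40 changed sign without being called, 11 became calls and 5 became calls of the opposite sign. With FPKM, Low against Control gave Bax 0.58, Bcl2 0.30, Bcl2l1 1.38, Apaf1 0.40, and, opposite in sign, Bad 0.36 and Casp9 0.61. Low against High gave Bax 0.52, Bcl2l1 1.29, Apaf1 0.47, and, opposite in sign, Bad 0.32 and Casp9 0.64. With TPM, Bcl2l1 was 1.0 and 0.92 in these comparisons and Casp9 0.26, opposite in sign, in Low against High. The median of all genes moved to 0.53 and 0.52 with FPKM, to 0.17 and 0.15 with TPM, and without scaling to 0.03 and -0.12, with 0.14 for High against Control. Leaving out libraries 49 and 57 gave Bad -0.17 and Apaf1 0.23 in Low against High. Members past the threshold numbered 6 of 6 (FPKM) and 1 of 6 (TPM) in Low against Control. Of all genes, 12393 of 13816 (FPKM) and 3952 of 15587 (TPM) were called there. In Low against High the members numbered 5 (FPKM), 2 (TPM) and 2 (without both libraries). Of all genes, 86.2% were called higher in Low with FPKM and 28.8% were called without both libraries. The TPM count of all genes is given below.

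For the wider list, Low against Control gave 1 of 34, lower in Low (median-of-ratios), and calls higher in Low under other settings. Those were 2 of 36 (without mitochondrial genes in the sum), 29 of 31 (FPKM) and 7 of 34 (TPM). In the same order, the calls among all genes were 1085 of 15632, 1759 of 16241, 12393 of 13816 and 3952 of 15587. Low against High gave 1 (no minimum), 0 (no scaling), 1, lower in Low (median-of-ratios), 28 (FPKM), 7 (TPM), 1 (Wilcoxon), 0 (covariate) and 8 (without both libraries), and High against Control gave 1 without both libraries. The Wilcoxon call was neither Bnip3l nor Birc2. Over all genes, Low against Control gave 556 (minimum 5), 1759 (without mitochondrial genes), 12393 (FPKM), 3952 (TPM), 535 (compared groups alone), 370 (Wilcoxon) and 361 (covariate). Low against High gave 1192 (minimum 5), 12410 (FPKM), 3927 (TPM), 1134 (Wilcoxon), 354 (covariate) and 4514 (without both libraries), and High against Control gave 390 without both libraries. The causes were not tested. Leaving out each rat changed 0 calls of members. For the wider list it gave 0 to 1 (1 without Low 58) in Low against Control and 1 to 5 in Low against High (1 without Low 59 or Low 62, 5 without Low 61), and over all genes 676 to 1224 and 1266 to 2479. The lack of read counts limits what can be said of Casp8 and Bcl2.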

Other observations

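Without libraries 49 and 57, 8 of 34 genes of the wider list differed between Low and High (limma adjusted p under 0.05), beside 28.8% of all genes, and the median log2 difference of all genes was 0.10. The share of the list is thus not above that of all genes. The largest difference was in Birc6, which encodes a giant ubiquitin ligase that binds caspases. Its scaled coverage was 9.34 to 16 in the 7 Low rats kept and 4.75 to 8.92 in the 8 High rats, ranges that did not overlap, which held for 3.83% of all genes, a log2 difference of 0.80 with a standard error of 0.121 (limma adjusted p = 4.67e-05). With all 24 rats it was 0.61 (limma adjusted p = 0.0849). Birc6 was also lower in High than in Control in the smaller set, at 6.31 ± 1.33 (SD, n = 8) against 10.2 ± 1.55 (n = 7), by -0.63 on the log2 scale (limma adjusted p = 0.00871). With all 24 rats that difference was -0.45 and did not pass (limma adjusted p = 0.999). Birc6 lies on chromosome 6 from 21950100 to 22092346, a span of 142 kb, and its levels in the rats left out were 3.09 in Control 49 and 3.35 in Low 57. It is therefore among the genes over 100 kb that were low in those rats. Of these genes, 41.4% were called in Low against High without both libraries and 7.84% with all rats. In High against Control, 8.67% of them were called without both libraries, beside 2.49% of all genes, and 0% with all rats. What part gene length has in the difference of Birc6 was not tested.

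Higher in Low than in High in the same set were Xiap, a direct inhibitor of caspases (0.33), Birc2 (0.31), Bcl2l11, which encodes the BH3-only protein Bim (0.28), Parp1 (0.22), Bnip3l (0.20) and Bcl2l2 (0.16). Aifm1, a flavoprotein released from mitochondria, was lower (-0.19). The genes higher in Low had the direction of the median of all genes, and Aifm1 had the opposite direction. The libraries were left out after their values had been seen.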
